A study of Mus musculus with 6 samples.

Results

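Retinal astrocyte nuclei were chosen from 6 single-nucleus libraries of degenerating mouse retina by the unique molecular identifiers (UMIs, counted RNA molecules) of 11 genes. A nucleus was taken when at least 2 of the 5 astrocyte markers Gfap, Pax2, Agt, Aldh1l1 and S100b had a UMI, when Pax2 had at least 1 UMI or Gfap at least 2, and when Abca8a, Folh1, Inpp5d, Slc17a6, Gad1 and Trpm1, genes of Muller glia, microglia and retinal neurons, were all at 0. The rule found 151 of the 56205 nuclei past the filters, or 0.269%. The study asked what an injection of IL-27, an immune cytokine, does in the retina of rd10 mice, whose rods die because of a Pde6b mutation. All mice were of the strain B6.CXB1-Pde6b-rd10/J, so saline and IL-27 groups both carried the lesion and no wild-type or uninjected retina was compared here. Groups of 3 libraries received saline (replicates 1, 2 and 6) or 20 ng of recombinant IL-27 protein (replicates 4, 5 and 10) into the vitreous at postnatal day 18, and frozen retinas were taken at postnatal day 20. Each library is 1 sample of its group, and the library is the unit of the tests. Whether a library holds 1 retina or several was not given in the sources used here. Where 2 cell types were tested together, 1 spread per gene was fitted to both, so those p-values do not measure the spread within 1 type.

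Astrocytes are the star-shaped glia of the nerve fibre layer. They enter the retina from the optic nerve head, where their precursors carry the paired-box factor Pax2, and spread ahead of the growing vessels. Their platelet-derived growth factor receptor, Pdgfra, answers a signal from ganglion cells, and the network they lay down, with Vegfa and fibronectin, guides the vascular plexus. Muller glia, in contrast, arise from retinal progenitors and span the whole retina. IL-27 acts through Il27ra paired with gp130 (Il6st), and then through Jak kinases and STAT factors such as Stat3, with Socs3 as a feedback inhibitor.

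The number of astrocyte nuclei was 16, 24 and 28 in saline replicates 1, 2 and 6 and 34, 28 and 21 in IL-27 replicates 4, 5 and 10. Values per library follow this order throughout, and levels are CPM values, a gene's UMIs per 1000000 UMIs of the summed nuclei. The nuclei had a median of 3920 UMIs (range 977 to 9422) and 2080 genes, and their sums held 642522 UMIs in all, out of 36678332 to 48260748 UMIs per library. Gfap, an intermediate filament, was detected in 139 nuclei, Pax2 in 134, the calcium-binding protein S100b in 50, the folate enzyme Aldh1l1 in 17 and angiotensinogen, Agt, in 11. Gfap plus Pax2 was the commonest combination, seen in 122 nuclei. In all, 110 nuclei had 2 markers, 34 had 3, 6 had 4 and 1 had all 5. These counts and the levels that follow in this paragraph describe the choice and were not tested. Gfap lay at 808, 857, 873, 808, 654 and 915 CPM and Pax2 at 617, 660, 1039, 728, 748 and 655 CPM. In Muller nuclei, defined as nuclei with at least 2 UMIs of the transporter Abca8a (5325 nuclei), Gfap lay at 26.4 to 46.6 CPM and Pax2 at 0.194 to 1.96 CPM. Aldh1l1, at 29.3 ± 26.8 CPM in astrocyte sums and 35.9 ± 10.2 CPM in Muller sums (mean ± SD, n = 6 libraries), and Agt, at 17.7 ± 10.5 and 16.3 ± 2.77 CPM, overlapped between the 2 glial types.

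**Figure D1:**
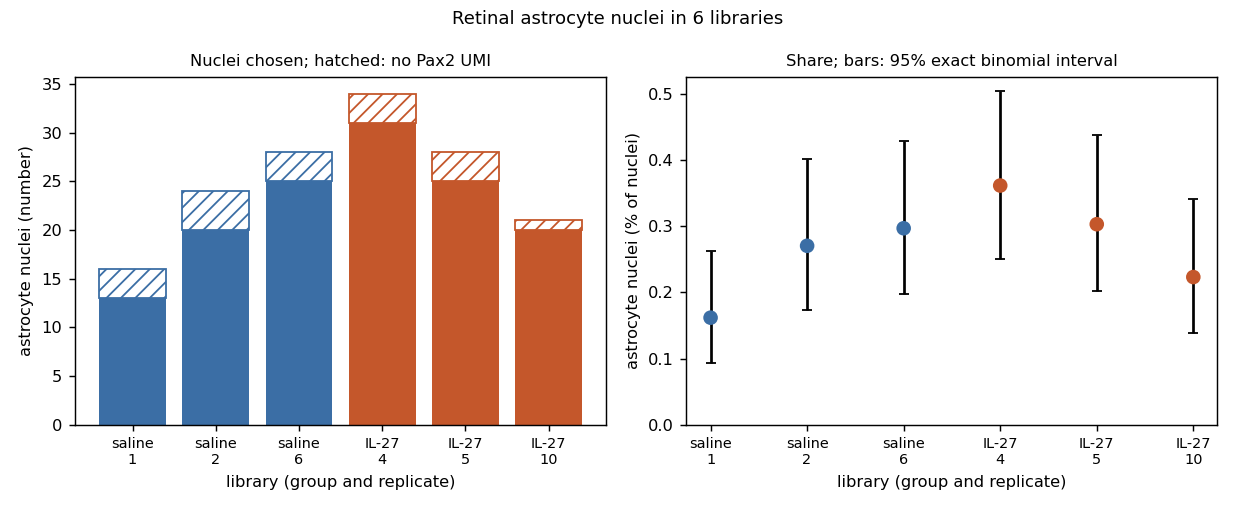
Left, astrocyte nuclei per library, with nuclei that lack a Pax2 UMI hatched. Right, their share of all nuclei past the filters in percent, with 95% exact binomial intervals. The counts run from 16 to 34, the nuclei without Pax2 number 1 to 4 in each library, and the intervals of the saline and IL-27 libraries overlap.

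Genes that the rule did not use were read across its borders, as a description. Nuclei with Pax2 as the only marker (48 nuclei) held Pdgfra at 351 CPM and the bicarbonate transporter Slc4a4 at 896 CPM. Nuclei with at least 2 Gfap UMIs as the only marker (52) held them at 239.5 and 485 CPM. Nuclei with 2 markers but only 1 Gfap UMI and no Pax2 (39) were at 27.2 and 43.6 CPM. Nuclei that met the marker conditions but had 1 UMI of an excluded gene (73) were at 679 and 2054 CPM. Just inside the border, astrocyte nuclei with 2 markers were at 945 and 1842 CPM, those with 3 or more at 1050 and 2918 CPM, and Muller nuclei were at 3.22 and 26.3 CPM. Without the 6 excluded genes, 357 nuclei would have met the rule, of which 77 were Muller nuclei by Abca8a.

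Genes outside the rule were used to check the label. Pdgfra had a UMI in 86.1% of astrocyte nuclei, in 1.45% of Muller nuclei and in 1.41% of all others, and Slc4a4 in 90.7%, 8.56% and 8.66%. After thinning each nucleus to 1000 UMIs, which left 150, 5306 and 8216 nuclei (the others drawn as up to 1500 per library), the shares were 53.3%, 0.471% and 0.609% for Pdgfra and 70.0%, 2.13% and 3.10% for Slc4a4. Median depths before thinning were 3920, 4873 and 3402 UMIs. Several genes of brain astrocytes were not seen. The connexin Gjb6, the growth factor receptor Fgfr3, Ntsr2, Acsbg1 and the organic anion transporter Slco1c1 had 0 UMIs in the 151 nuclei, and 0 of 151 allows a share of up to 1.99% of nuclei with a UMI.

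Not all 151 nuclei were alike. The 17 without Pax2 held the water channel Aqp4 at 416 CPM, the vascular receptor Flt1 at 316 CPM, the growth factor receptor Egfr at 316 CPM and the thyroid hormone binding protein Crym at 402 CPM, against 17.5, 6.98, 24.4 and 47.1 CPM in the 134 with Pax2. Muller nuclei held them at 415, 1008, 344 and 361 CPM. Pdgfra lay at 387 CPM without Pax2 and at 1049 CPM with it. By a criterion added after seeing the data, 16 nuclei (1, 5, 2, 2, 4 and 2 per library) were set apart because they had under 2 UMIs of Pdgfra and Slc4a4 together (13 nuclei) or at least 0.3% of their UMIs on 12 neuronal genes (11 nuclei, 8 of them in both classes). The synaptic genes Syt1 and Nrxn3 were at 2566 and 6055 CPM in these 16 and at 117 and 247 CPM in the other 135. Pdgfra was at 239 against 1094 CPM and Slc4a4 at 137 against 2498 CPM, and all 4 of these gaps follow from the criterion, which used neuronal genes, Pdgfra and Slc4a4. The 12 neuronal genes summed to 397, 544 and 912 CPM in saline astrocyte sums and 794, 1410 and 1633 CPM in IL-27 sums. Without the 16 nuclei the sums were 408, 273 and 452 CPM and 395, 414 and 620 CPM. In Muller sums they ran from 1688 to 2853 CPM. The limit of 0.3% was not applied to Muller nuclei, of which 11.2 to 22.9% per library were at or over it. Values without these nuclei are given for the named genes that had at least 50% of their UMIs in them. Among all nuclei, 367 barcodes were found in more than 1 library. The barcodes of 4 astrocyte nuclei were nuclei in another library, and no barcode was an astrocyte nucleus in more than 1 library. A doublet caller marked 4 of the 151.

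Markers of other cell types were summed as whole lists. Rod genes (12) summed to 480 to 1279 CPM in astrocyte sums, against 715 to 1290 CPM in Muller sums. Bipolar genes (8) reached 728 to 1129 CPM against 1289 to 2727 CPM in Muller sums. Amacrine and horizontal genes (10) reached 102 to 321 against 664 to 815 CPM, and cone genes (8) 89.3 to 378 against 254 to 386 CPM. Microglia genes (8) lay at 118 to 218 against 178 to 244 CPM, with Ptprc and Tmem119 at 0 in astrocyte nuclei. Endothelial genes (8) lay at 68.6 to 214 against 1290 to 1793 CPM, with Cdh5 and Egfl7 at 0. Most of the Muller sum was Flt1 (1008 CPM) and Kdr (464 CPM), with a UMI in 92.3% and 81.6% of Muller nuclei. This gap is therefore no measure of endothelial content. Oligodendrocyte lineage genes (8) lay at 0 to 44.1 against 17.5 to 26.5 CPM, with Mog, Mobp, Olig1, Olig2 and Sox10 at 0. That measurement bears on Pdgfra, which oligodendrocyte precursors also use. Pericyte and smooth muscle genes (8) lay higher than in Muller sums, at 131 to 302 against 82.1 to 97.6 CPM. Notch3, Acta2 and Myh11 were at 0, but the pericyte gene Rgs5 was higher by 5.13 on the log2 scale. Fibroblast genes (8) lay at 0 to 68.6 against 14.1 to 30.0 CPM, with Col1a1, Dcn, Lum, Col3a1 and Slc6a13 at 0. Pigmented epithelium genes (10) lay at 49.0 to 134 against 52.5 to 59.7 CPM, with Rpe65, Best1, Tyr, Tyrp1 and Pmel at 0. Ganglion cell genes (8) were also higher than in Muller sums, at 118 to 255 against 73.3 to 104 CPM, with Pou4f2 at 0.

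The comparison with Muller nuclei of the same library asks which genes set the 2 macroglia apart in this retina. Astrocyte nuclei were higher in Pdgfra, in the Pax-family factor Pax8, in the guidance molecule Sema6d and in Hs3st3a1, an enzyme that sulfates heparan chains, each by more than 7 on the log2 scale. They were lower in the transcription regulator Tox, the cytokine Il33 and the matrix protease Adamts5, each by about 5. Of 12190 genes tested outside the rule, 808 were higher (6.63%) and 1653 lower (13.6%) at an adjusted p of 0.05 (edgeR quasi-likelihood test with the library as a block). The median log2 difference over all tested genes was -0.14, and list medians below are to be read against it, as the counts of called members are against 6.63% and 13.6%. Without the 16 nuclei set apart, 909 of 12086 genes were higher and 2048 lower, including 783 and 1602 of the genes above. Here and below, leaving out those nuclei changed the astrocyte side only, and no Muller nuclei were removed. Against Muller nuclei with 0 UMIs of Inpp5d, Slc17a6, Gad1 and Trpm1, as the astrocyte nuclei have, 702 of the 808 and 1200 of the 1653 were called again. The Muller sums held 31989669 UMIs, so astrocyte sums set the precision. Genes could pass the count filter through the Muller sums alone, and such genes can more readily be called lower than higher. With Muller sums thinned to the UMIs of the astrocyte sums, 417 of 2336 genes were higher and 467 lower. DESeq2 called 1004 higher and 1112 lower. The size of the excess of lower calls thus depended on the processing.

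Pdgfra (chr5:75152292-75198215, plus strand, GRCm38) lay at 1558, 1062, 922, 925, 858 and 759 CPM in astrocyte sums and at 1.5 to 5.27 CPM in Muller sums. The ranges lay far apart in every library, with a log2 difference of 8.11 (SE 0.25, adjusted p = 1.57e-25). Hs3st3a1 (chr11:64435332-64522841, plus strand) lay at 529, 518, 382, 444, 496 and 281 CPM against 0 to 1.81 CPM (log2 difference 8.76, SE 0.28, adjusted p = 9.87e-25), and Pax8 (chr2:24420560-24475599, minus strand) at 676, 152, 343, 451, 307 and 218 CPM against 0.194 to 2.86 CPM (8.01, SE 0.30). Pax8 overlaps Gm13415, an antisense transcript on the plus strand (8.18, SE 0.38). Whether the counting used strand is not given in the sources used here, so reads of these genes may not be told apart. Sema6d ran from 957 to 2062 CPM against 6.01 to 18.7 CPM (7.01, SE 0.23). The other genes with the largest positive differences were the noncoding RNAs C230072F16Rik (8.34) and Gm14061 (7.22), the LIM-domain cofactor Lmcd1 (8.03), the actin-binding protein Lsp1 (7.18) and Ifitm10 (6.62). None of these 10 genes had more than 4.55% of its UMIs in the nuclei set apart, and for Pdgfra a low share follows from the criterion.

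At the lower end, Tox ran from 21.8 to 125 CPM in astrocyte sums and from 1433 to 2035 CPM in Muller sums (log2 difference -5.37, SE 0.23, adjusted p = 1.03e-20). Of the astrocyte UMIs of Tox, 90.6% came from the 16 nuclei set apart, and of those of Flt1 (-4.88, SE 0.31) 84.6% did. The peptidase Trhde had 1 UMI in the astrocyte sums, so Muller nuclei were 88.7-fold higher with a counting interval of 15.9 to 3503. The noncoding BC055402 had 3 UMIs, with a ratio of 61.3 (interval 21 to 297). The protease Adamts19 had 3 UMIs too, against 64.0, 66.3 and 24.5 CPM in saline and 281, 235 and 420 CPM in IL-27 Muller sums. These Muller groups did not overlap and only the IL-27 libraries were over 100 CPM, so no pooled ratio is given. Adamts5 (-5.07, SE 0.30), Tafa4 (-5.09, SE 0.38), the noncoding C130073E24Rik (-5.04, SE 0.41), Il33 (-4.98, SE 0.42) and the transmembrane protein Tmeff2 (-4.82, SE 0.37) completed the list.

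**Figure D2:**
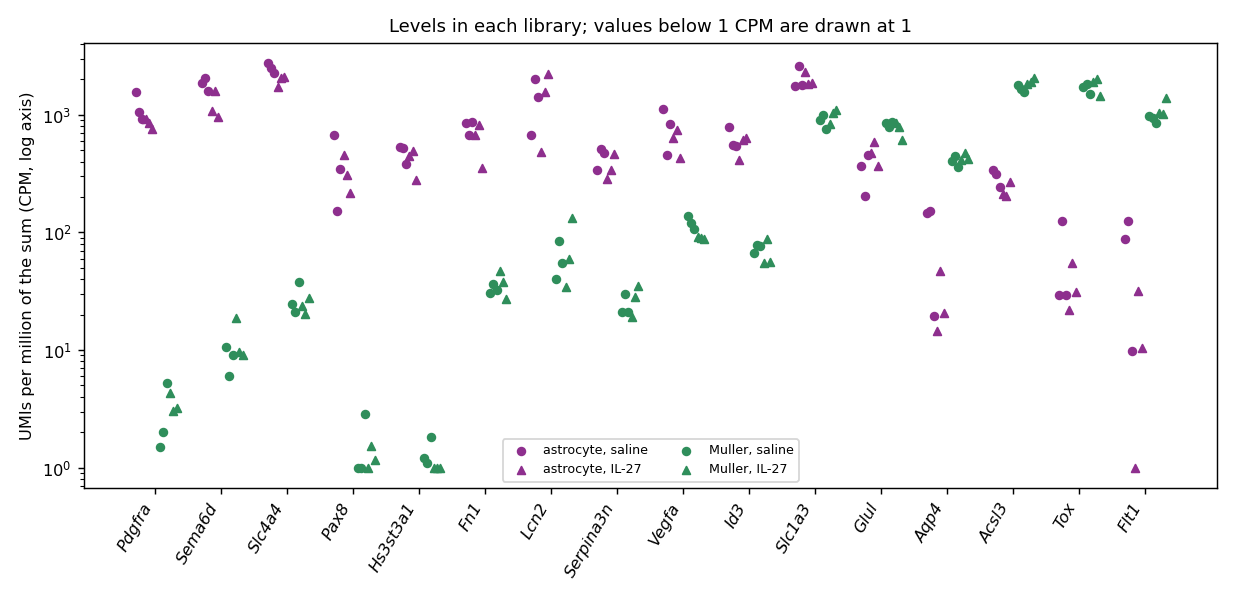
Levels of 16 genes in CPM on a log axis, for astrocyte sums (purple) and Muller sums (green) of the same 6 libraries, with circles for saline and triangles for IL-27. Pdgfra, Sema6d, Slc4a4, Pax8 and Hs3st3a1 lie apart by more than 10-fold in every library, while Glul and Slc1a3 lie closer together.

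Astrocyte genes outside the rule were mostly higher than in Muller nuclei: of 15 tested, 9 were higher and 2 lower, with a median log2 difference of 1.1. Slc4a4 lay at 2763, 2517, 2255, 1733, 2048 and 2080 CPM against 20.4 to 37.6 CPM (6.25, SE 0.18, adjusted p = 3.61e-26). Connexin 43, Gja1, followed at 58.8, 98.2, 78.4, 182, 70.9 and 62.4 CPM against 0.217 to 19.7 CPM (3.77, SE 0.48). The GABA transporter Slc6a11 differed less (1.1, SE 0.15). The glutamate transporter Slc1a2 was lower (-0.70, SE 0.18), and Slco1c1, at 0 UMIs, was at least 2.04-fold lower. The median is the same with Slco1c1 at this bound.

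Muller genes outside the rule went the other way for the larger number: 11 of 18 were lower and 2 higher, with a median of -0.95. Carbonic anhydrase 14 (Car14, -4.16), the receptor Gpr37 (-3.06) and Dapl1 (-2.43) were among them. Glutamine synthetase, Glul, lay at 367, 205, 451, 473, 583 and 364 CPM against 611 to 876 CPM (-1.18, SE 0.17), the Wnt modulator Dkk3 at 491 to 662 CPM against 969 to 1352 CPM (-1.25, SE 0.15) and apolipoprotein E, Apoe, at 528 to 1009 CPM against 817 to 1431 CPM (-0.71, SE 0.15). The filament Vim (1.51, SE 0.21) and the glutamate transporter Slc1a3 (0.92, SE 0.14) were the 2 that were higher.

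Transcription factors of the optic stalk and retinal field included 3 of 16 that were higher and 3 that were lower (18.8% each, against 6.63% and 13.6% of all tested genes), with a median of -0.28. Zic1 lay at 78.4 to 143 CPM against 9.11 to 23.9 CPM (2.90, SE 0.28), Sox2 at 31.2 to 88.2 CPM against 15.7 to 21.4 CPM (1.6, SE 0.30) and Vax2, a factor of the ventral optic cup and stalk, at 31.5 to 62.4 CPM against 19.2 to 24.6 CPM (0.93, SE 0.33). Pax6, which acts opposite Pax2 at the border of stalk and cup, lay at 103, 179, 118, 21.8, 126 and 93.6 CPM against 542 to 710 CPM (-2.74, SE 0.22). Otx2 (-1.63, SE 0.37), a factor of retinal neurons, was lower too. Foxd1 had 0 UMIs. Nfia, a glial factor present in both types, did not pass (0.27, SE 0.14), nor did Six3 (0.46, SE 0.19).

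Genes for water, potassium, glutamate and gap junctions split, with 5 of 14 higher, 7 lower and a median of -0.52. Slc4a4, Gja1, Slc6a11 and Slc1a3 were among the higher 5. Aqp4 lay at 147, 152, 19.6, 14.6, 47.3 and 20.8 CPM against 358 to 475 CPM (-3.01, SE 0.28), the potassium channel Kcnj10 at 7.28 to 55.1 CPM against 71.2 to 89.1 CPM (-1.75, SE 0.31) and dystrobrevin, Dtna, at 160 to 354 CPM against 685 to 918 CPM (-1.69, SE 0.17). Of the astrocyte UMIs of Aqp4, 74.4% came from the 16 nuclei set apart, and 14 of 151 nuclei had a UMI.

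Of vessel template and matrix genes, 11 of 19 were higher, 3 were lower and the median was 1.01. Vegfa, the vessel growth factor, lay at 1117, 455, 833, 641, 740 and 426 CPM against 88.2 to 137 CPM (2.5, SE 0.17, adjusted p = 3.91e-15). Fibronectin, Fn1, lay at 852, 678, 863, 670, 819 and 354 CPM against 27.4 to 47.0 CPM (4.11, SE 0.18). Both were higher in each of the 6 libraries. The proteoglycan Bcan (4.23, SE 0.51) and the basement membrane protein Nid1 (2.80, SE 0.62) were also higher, though each was at 44.6 CPM or less, and the ephrin Efna5 was higher by 0.44 (SE 0.15). Laminin alpha 1, Lama1 (-3.06), the semaphorin Sema3e (-3.07) and Cspg5 (-1.50) were lower. All of the astrocyte UMIs of Lama1 came from the nuclei set apart.

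Of 21 reactive astrocyte genes tested, 7 were higher and 3 lower, with a median of 0.11. Gfap was a marker of the rule, while Muller nuclei were taken by Abca8a alone. Levels of genes that vary together with Gfap are thus not independent of the choice. Lcn2, for example, was at 437 CPM in nuclei with Pax2 as the only marker and at 252 CPM with Gfap as the only marker. All astrocyte nuclei pooled held it at 1396 CPM and Muller nuclei at 63.0 CPM. Lipocalin 2, Lcn2, an iron-siderophore binding protein of gliosis, lay at 676, 2017, 1422, 481, 1575 and 2226 CPM against 34.2 to 134 CPM in Muller sums (4.15, SE 0.17, adjusted p = 1.15e-21). Its level varied widely between libraries, with IL-27 replicate 4 the lowest and IL-27 replicate 10 the highest, and the groups overlapped. It had a UMI in 72.8% of astrocyte nuclei, 20.2% of Muller nuclei and 11.3% of others, and after thinning in 54.7%, 5.81% and 4.27%. The protease inhibitor Serpina3n was at 284 to 509 CPM against 19.2 to 35.2 CPM (3.77, SE 0.18) and complement C3 at 102 to 312 CPM against 10.9 to 21 CPM (3.32, SE 0.25). The ferroxidase ceruloplasmin, Cp, was at 5133 to 8514 CPM against 1648 to 2820 CPM (1.41, SE 0.13), and the metalloreductase Steap4 at 0 to 65.5 CPM against 6.99 to 15.4 CPM (1.90, SE 0.43). The lower members were Fkbp5 (-1.39, SE 0.38), the hyaluronan receptor Cd44 (-0.74, SE 0.19) and the oncostatin M receptor Osmr (-0.67, SE 0.22). Ggta1, Ptx3, Emp1, Slc10a6, Tm4sf1, B3gnt5, Hspb1 and Ugt1a1 had 0 UMIs in astrocyte nuclei.

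**Figure D3:**
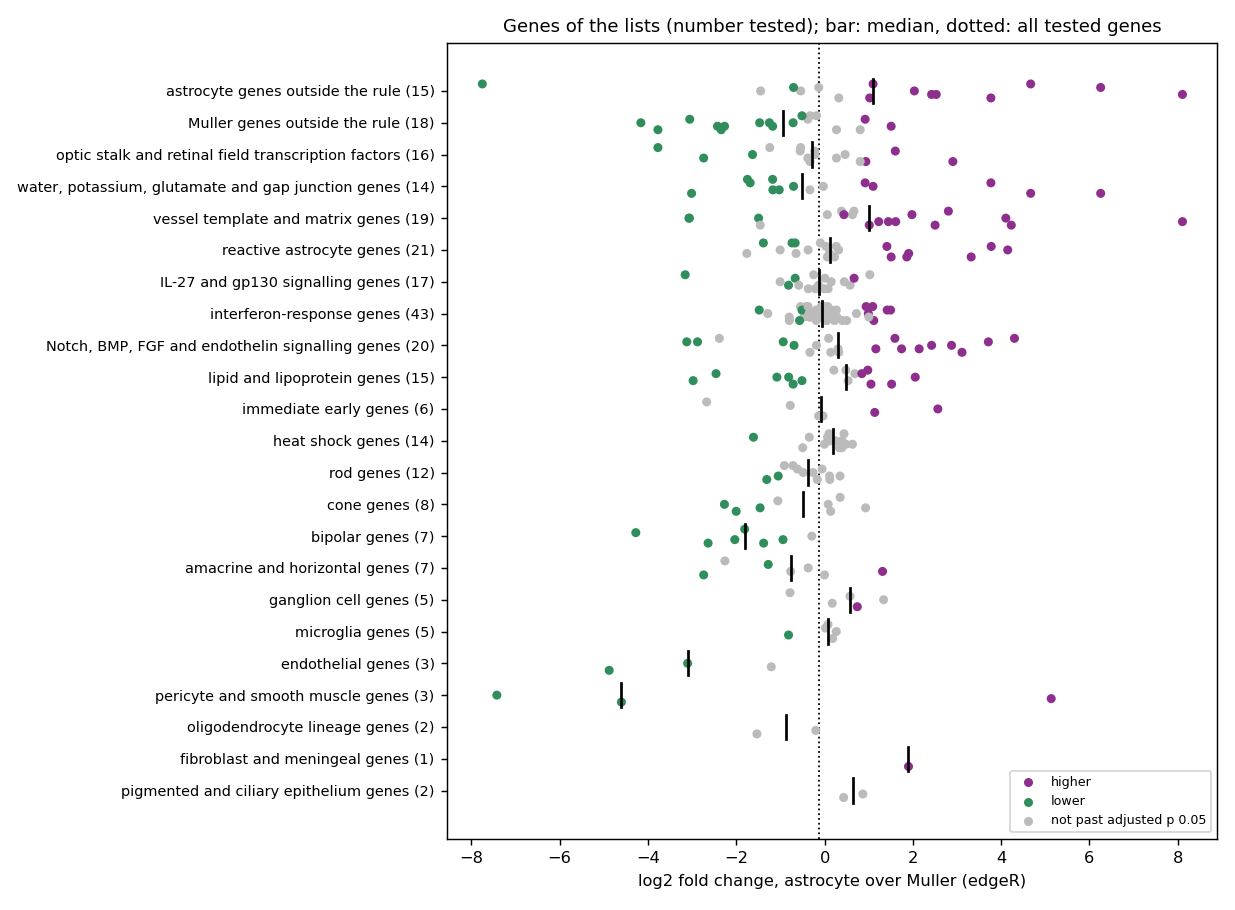
Log2 fold change of astrocyte over Muller sums (edgeR) for the tested genes of each list, with the number tested in parentheses, purple for higher, green for lower and grey for genes not past an adjusted p of 0.05. The short bars are list medians and the dotted line is the median of all tested genes, -0.14. The vessel and matrix list has its median at 1.01 and the Muller list at -0.95, and genes with 0 astrocyte UMIs, such as Slco1c1, are drawn at fitted values that are no bounds.

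Of the receptor pair of IL-27, Il6st was detected and Il27ra was not. Il27ra had 0 UMIs in 151 astrocyte nuclei and 0 in 5325 Muller nuclei, which allows shares of up to 1.99% and 0.0563%. It had a UMI in 28 of 50729 other nuclei, or 0.0552%, so 151 nuclei could not have shown a share of this size. Il6st had a UMI in 25.2% of astrocyte nuclei and 40.8% of Muller nuclei, and lay at 44.1, 80.3, 108, 51.0, 39.4 and 52.0 CPM against 89.1 to 103 CPM (-0.82, SE 0.25, adjusted p = 0.0131). Of 17 IL-27 and gp130 signalling genes tested, 1 was higher (5.88%), 3 were lower (17.6%) and the median was -0.14, near the 6.63%, 13.6% and -0.14 of all tested genes. Stat3 was the higher one, at 338, 473, 382, 430, 425 and 198 CPM against 183 to 236 CPM (0.67, SE 0.17). The ciliary neurotrophic factor receptor Cntfr (-3.16, SE 0.52) and Osmr were lower beside Il6st, and 75% of the astrocyte UMIs of Cntfr came from the nuclei set apart. Socs3, at 14.7, 8.93, 19.6, 0, 78.8 and 104 CPM against 8.55 to 20.8 CPM, did not pass (1.02, SE 0.44, adjusted p = 0.101), and neither did Stat2 (0.15, SE 0.18). Ebi3 and Socs1 had 0 UMIs. Jak1 lay at 73.5 to 198 CPM against 92.0 to 112 CPM.

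STAT factors bind a palindrome, TTCNNNGAA, which reads the same on both strands. In RefSeq promoter windows of the 250 bases before each gene start (GRCm38), 2306 of 32851 (7.02%) held it, and counted by gene 2197 of 27025 (8.13%) had a window with it. By gene it was found for 1 of 18 in the signalling list, 5 of 32 in the reactive list, 8 of 36 in the interferon list and 3 of 23 in the astrocyte list. The signalling gene with a match was Socs3 and the reactive genes were Emp1, Psmb8, Sphk1, Steap4 and Tgm1. A match is a description of letters and not a measured site. The windows of Socs3 (chr11:117969367-117969616, minus strand) and Steap4 (chr5:7960222-7960471, plus strand) are shown because they are the matching members whose levels are given above, with the palindrome in capitals.
Socs3: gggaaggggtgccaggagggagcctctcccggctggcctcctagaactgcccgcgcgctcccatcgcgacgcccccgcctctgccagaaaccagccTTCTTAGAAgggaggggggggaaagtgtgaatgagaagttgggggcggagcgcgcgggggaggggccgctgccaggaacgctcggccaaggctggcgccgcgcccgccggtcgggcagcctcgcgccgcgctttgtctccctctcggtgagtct
Steap4: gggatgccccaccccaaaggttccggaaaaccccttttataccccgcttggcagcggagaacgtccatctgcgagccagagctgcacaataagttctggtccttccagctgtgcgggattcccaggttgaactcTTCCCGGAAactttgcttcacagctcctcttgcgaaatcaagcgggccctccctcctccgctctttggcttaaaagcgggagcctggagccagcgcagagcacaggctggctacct

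Of 43 interferon-response genes tested, 6 were higher (14.0%, against 6.63% of all tested genes) and 3 lower (6.98%, against 13.6%) than in Muller nuclei, with a median of -0.06. The ubiquitin-like modifier Isg15 lay at 88.2, 53.6, 68.6, 36.4, 70.9 and 166 CPM in astrocyte sums and at 26.0, 25.7, 11.7, 18.8, 25.6 and 37.6 CPM in Muller sums (1.49, SE 0.29). The antiviral Ifit1 lay at 176, 152, 19.6, 80.1, 86.6 and 281 CPM and at 53.3, 52.8, 21.4, 31.5, 63.1 and 81.2 CPM (1.11, SE 0.23). For both genes IL-27 replicate 10 was the highest library in both types, and for Ifit1 saline replicate 6 was the lowest in both. The GTPase Iigp1 (1.42, SE 0.30) and Ifi44 (1.09, SE 0.28) were also higher. Nlrc5, a regulator of MHC class I genes (-1.48, SE 0.33), the helicase Ddx60 (-0.57, SE 0.17) and the MHC molecule H2-K1 (-0.51, SE 0.18) were lower. The whole list summed to 2432 to 6730 CPM in astrocyte sums and 2135 to 5572 CPM in Muller sums.

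Signalling genes of the Notch, BMP, FGF and endothelin pathways included 9 of 20 that were higher and 4 that were lower, with a median of 0.31. The inhibitor-of-differentiation genes, targets of BMP signals, were among them. Id3 lay at 794, 553, 539, 415, 606 and 634 CPM against 55.2 to 88.5 CPM (2.87, SE 0.17), Id1 at 94.7 to 314 CPM against 10.9 to 42.7 CPM (3.11, SE 0.22) and Id4 at 65.5 to 284 CPM against 8.46 to 11.9 CPM (3.71, SE 0.29). The FGF feedback inhibitor Spry1 lay at 142 to 204 CPM against 6.29 to 10.1 CPM (4.30, SE 0.25). Notch2 (1.16, SE 0.17) and the neuregulin receptor Erbb4 (1.59, SE 0.22) were higher, the latter at 103, 241, 980, 648, 417 and 208 CPM with saline replicate 6 the highest. Egfr (-2.88, SE 0.31), Fgfr2 (-0.94, SE 0.14) and Fgfr1 (-0.69, SE 0.19) were lower, and 72.2% of the astrocyte UMIs of Egfr came from the nuclei set apart. The Notch target Hes5 had 1 UMI, with Muller nuclei 8.17-fold higher (interval 1.46 to 324).

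Lipid and lipoprotein genes divided into 5 higher and 6 lower of 15, with a median of 0.48. The sterol synthesis enzyme Hmgcs1 (1.52, SE 0.35), the desaturase Scd2 (1.05, SE 0.17), the lipogenic regulator Srebf1 (0.98, SE 0.30) and the phosphatase Plpp3 (0.84, SE 0.15) were among the higher ones. The acyl-CoA synthetase Acsl3 lay at 205 to 338 CPM against 1552 to 2065 CPM (-2.98, SE 0.16), and the sterol exporters Abcg1 (-2.46, SE 0.47) and Abca1 (-1.08, SE 0.18), with Acsl6 (-0.81, SE 0.26), were lower too.

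Among the remaining lists, 2 of 6 immediate early genes were higher, Jun (2.56, SE 0.25) and Junb (1.14, SE 0.31), and 1 of 14 heat shock genes was lower, Hsph1 (-1.61, SE 0.48). Of neuronal lists, 2 of 12 rod genes (Sag, -1.05, and Pde6b, -1.31), 3 of 8 cone genes, 6 of 7 bipolar genes (Grik1, -4.28) and 2 of 7 amacrine and horizontal genes (Pax6 and Tfap2b) were lower. Muller sums had more of the 12 neuronal genes than astrocyte sums in each library, and the rule removed nuclei with Slc17a6, Gad1 or Trpm1 UMIs from the astrocyte side alone. Against Muller nuclei with 0 UMIs of these genes and Inpp5d, 2 of 5 bipolar genes were lower and 1 was higher, and the median moved from -1.81 to 0.14. In the same comparison 1 of 12 rod genes, 2 of 7 cone genes (median -0.01 in place of -0.49) and 1 of 3 amacrine and horizontal genes were lower. An amacrine gene, the glycine transporter Slc6a9, was higher (1.31, SE 0.34), with 58.3% of its astrocyte UMIs in the nuclei set apart and a difference of 0.25 without them. The nuclei set apart were chosen partly by neuronal genes. The ganglion cell gene Rbpms was higher (0.74, SE 0.23) as 1 of 5. Of microglia genes 1 of 5 was lower, P2ry12 (-0.82, SE 0.23), and of endothelial genes 2 of 3 were lower, Flt1 and Kdr (-3.10, SE 0.21), a receptor for Vegfa that is also found in Muller glia. Of 3 pericyte genes, the regulator of G-protein signalling Rgs5 was higher, at 191, 205, 127, 124, 228 and 281 CPM against 1.65 to 7.86 CPM (5.13, SE 0.29). Pdgfrb, with 2 UMIs, was lower, with Muller nuclei 21.8-fold higher (interval 6.04 to 180), and Notch3, with 0 UMIs, was at least 1.69-fold lower. The collagen Col1a2 was higher (1.88, SE 0.55) as the only fibroblast gene tested, and no gene passed among 2 oligodendrocyte and 2 pigmented epithelium genes.

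Several of the lower genes had most of their astrocyte UMIs in the 16 nuclei set apart. Lower values for these genes without those nuclei follow from this choice and are given as a description. Without these nuclei the difference from Muller nuclei was -4.73 for Aqp4 (10 UMIs left), -4.44 for Egfr (10), -4.32 for Gpr37 (11), -4.11 for Sema3e (15), -7.35 for Flt1 (4) and -2.34 for Tfap2b (5). For Tox, Adamts5, Tafa4, Tmeff2, C130073E24Rik, BC055402, Adamts19, Cntfr and Abcg1, 3 or fewer UMIs were left, and for Lama1 none.

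Treatment was first compared by the share of astrocyte nuclei. The share was 0.162, 0.271 and 0.297% in saline libraries and 0.362, 0.303 and 0.223% in IL-27 libraries. The groups overlapped, with means of 0.243 ± 0.0717% and 0.296 ± 0.0695% (SD, n = 3 each) and a difference of 0.0529 percentage points (exact two-sided permutation test, p = 0.4, smallest possible p 0.1). Of astrocyte plus Muller nuclei, astrocyte nuclei made up 1.47, 2.56 and 2.77% in saline and 3.57, 3.34 and 3.26% in IL-27 libraries. These groups did not overlap, at 2.26 ± 0.698% and 3.39 ± 0.161%, with p = 0.1 in the exact test, the smallest it can give. Muller nuclei numbered 1075, 915 and 984 in saline and 918, 810 and 623 in IL-27 libraries, so the denominators of this ratio differed too. When the rule was applied after thinning to 1000 UMIs, 69 nuclei remained and the difference in share was 0.00111 points (exact p = 1).

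No gene passed the test between IL-27 and saline astrocyte sums. Of 2378 genes tested by edgeR, 0 were called higher and 0 lower at an adjusted p of 0.05 (0% in each direction). At an unadjusted p of 0.05, 51 were higher (2.14%) and 59 lower (2.48%), and DESeq2 also called 0 in each direction, with 68 and 30 genes under an unadjusted p of 0.05. All 3 IL-27 libraries lay above all 3 saline libraries for 122 genes (5.13%) and below them for 112 (4.71%). The values below describe genes among the 5 per direction with the smallest p among those whose groups did not overlap, and none passed. In the 134 nuclei with a Pax2 UMI alone, 8 genes were called higher, among them Cadm2, Kcnip4, Kirrel3, March1, Pcdh15, Rims2 and Syt1, and 1 was called lower (Trf). In a separate run on the 135 nuclei that were not set apart, with or without Pax2, 0 were called. Nuclei with Pax2 and not set apart were not tested on their own.

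Transferrin, Trf (chr9:103204001-103230444, minus strand), an iron carrier, was at 1367, 1937 and 1186 CPM in saline sums and 655, 685 and 759 CPM in IL-27 sums. Each IL-27 library was below each saline library, and the log2 difference was -1.10 (SE 0.22, unadjusted p = 0.000225, adjusted p = 0.175). Without the nuclei set apart it was -1.13. In nuclei with a Pax2 UMI only it was -1.27 and passed, with an adjusted p of 0.0144. Trf was also higher in astrocyte than in Muller nuclei (2.45, SE 0.17), and in Muller sums it was at 137 to 206 CPM with overlapping groups. The test of a different IL-27 effect in the 2 types did not pass for Trf (-0.93, SE 0.29, adjusted p = 0.167). Spats2l was at 294, 259 and 343 CPM in saline and 182, 158 and 93.6 CPM in IL-27 sums (-1.03, SE 0.31, adjusted p = 0.681). The zinc finger gene Zfp536 was at 309, 455 and 196 CPM against 167, 158 and 93.6 CPM (-1.19, SE 0.35). Crym was at 206, 152 and 127 CPM against 14.6, 39.4 and 41.6 CPM (-2.33, SE 0.48, adjusted p = 0.175), and 50.9% of its UMIs came from the nuclei set apart.

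The 5 genes with positive differences had most of their UMIs in the 16 nuclei set apart. Those nuclei were chosen after seeing the data, partly by neuronal genes. Changed differences of neuronal genes without them follow in part from this choice and are given as a description. Nrxn3, a synaptic adhesion gene, was at 309, 723 and 716 CPM in saline and 1369, 1284 and 1477 CPM in IL-27 sums (1.21, SE 0.27, adjusted p = 0.260). Of its UMIs, 79.5% came from those nuclei, and without them the difference was -0.19. Syt1 was at 73.5, 170 and 353 CPM against 444, 630 and 926 CPM (1.68, SE 0.42), with 77.6% of UMIs in those nuclei and a difference of 1.05 without them. Rims2 (1.85, SE 0.45) and Zfp385b (2.03, SE 0.42) had 72.4% and 57.1% of their UMIs there and, like Crym, were below the count filter without those nuclei. Tmem132d had 0 UMIs in all saline sums and 13, 18 and 9 UMIs in IL-27 sums, of which 92.5% lay in those nuclei, and no fold is given. The summed level of the 12 neuronal genes was highest in IL-27 replicates 5 and 10, as given above, and its part in these values was not tested.

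**Figure D4:**
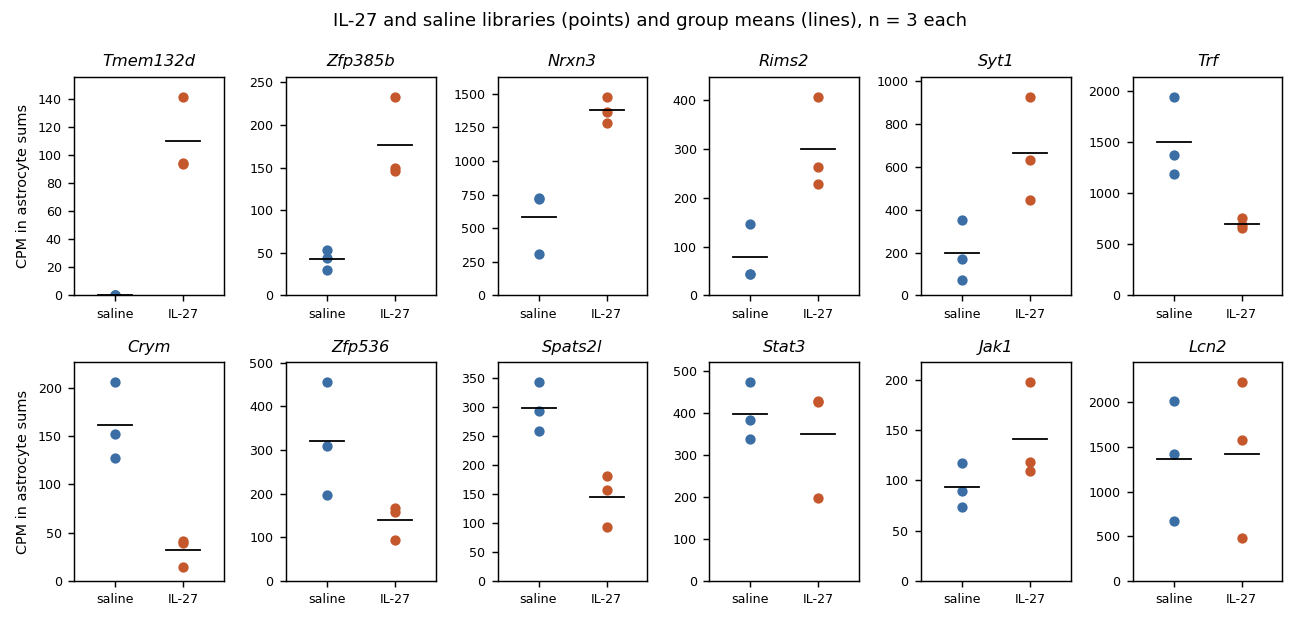
CPM in the astrocyte sums of the 3 saline (blue) and 3 IL-27 (orange) libraries for 12 genes, with lines at the group means. The first 9 have groups that do not overlap, with Trf, Crym, Zfp536 and Spats2l lower in IL-27 libraries, and none passed an adjusted p of 0.05. Stat3, Jak1 and Lcn2 overlap between groups.

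Genes of the IL-27 pathway showed no call. Stat3 was at 338, 473 and 382 CPM in saline and 430, 425 and 198 CPM in IL-27 sums (-0.19) and Jak1 at 73.5, 89.3 and 118 CPM against 109, 118 and 198 CPM (0.53, SE 0.40). Both overlapped between groups. Il6st and Socs3 were below the count filter. Socs3 was at 14.7, 8.93 and 19.6 CPM in saline and 0, 78.8 and 104 CPM in IL-27 sums, so that IL-27 replicate 4 was the lowest library and the other IL-27 libraries the highest. Of all lists, 0 members were called. Median log2 differences were -0.34 for 8 astrocyte genes, -0.39 for 8 vessel and matrix genes, -0.32 for 9 reactive genes, -0.07 for 6 IL-27 and gp130 genes, -0.21 for 20 interferon genes, -0.19 for 14 Notch, BMP, FGF and endothelin genes, -0.22 for 8 lipid genes and -0.38 for 7 heat shock genes, against -0.01 for all tested genes. They were -0.05 for 10 Muller genes, -0.01 for 7 transcription factors, -0.09 for 10 water and glutamate genes, 0.44 for 4 rod genes and 0.22 for 2 bipolar genes. Immediate early, amacrine, ganglion cell, microglia and pericyte lists had 1 tested gene each, and the other lists had none. Some of these medians moved with the processing. Without the nuclei set apart, astrocyte, vessel, reactive and interferon medians were -0.35, -0.38, -0.15 and -0.07, against -0.01 for all tested genes. By DESeq2, which tested more genes, they were 0.03, -0.37, 0.004 and -0.33, against 0.04.

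A difference of the IL-27 effect between astrocyte and Muller nuclei was called for 77 of 13636 genes, 68 with a higher effect in astrocyte nuclei (0.499%) and 9 with a lower effect (0.066%). At an unadjusted p of 0.05, 496 were higher (3.64%) and 268 lower (1.97%). Most of these calls rested on few nuclei. In 59 of the 77 genes a single nucleus held at least 20% of the astrocyte UMIs, and in 13 at least 50%. Among the 808 genes higher in astrocyte than in Muller nuclei, 29 were so. The 16 nuclei set apart held a median of 76.1% of the UMIs of the 77 genes. Without them 8 genes were called by edgeR, 7 of which were among the 77. Here too, the loss of calls for neuronal genes follows in part from how these nuclei were chosen. DESeq2 called 2 with all nuclei, Crym and Tmem132d, and 0 without the 16. With thinned Muller sums, edgeR called the same 2 genes.

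The synaptic gene Lrrtm4 shows the pattern, at 29.4, 0 and 39.2 CPM in saline and 0, 717 and 520 CPM in IL-27 astrocyte sums (4.35, SE 0.51, adjusted p = 1.07e-13). The astrocyte groups overlapped, and the test fitted 1 spread to astrocyte and Muller sums together. With DESeq2 the adjusted p of Lrrtm4 was 0.99989, and in edgeR with thinned Muller sums it was 0.377. A single nucleus held 53.1% of the Lrrtm4 UMIs, and the difference was -1.62 without the nuclei set apart. The contactin Cntn5 was at 14.7, 44.6 and 9.80 CPM in saline and 670, 7.88 and 333 CPM in IL-27 sums (4.12), with 66.7% of its UMIs in a single nucleus. Otx2os1 (3.37) and the netrin receptor Unc5d (3.69) had 54.3% and 34.8% in their largest nucleus. Without the nuclei set apart the differences were 2.68 for Cntn5 (6 UMIs left), 2.05 for Otx2os1 (31) and 0.08 for Unc5d (4), and none was called. Tmem132d, without UMIs in saline astrocyte sums, was called with all nuclei and had 3 UMIs left without those set apart. On the lower side, Il1rapl2 had all its 21 astrocyte UMIs in saline replicate 6, 90.5% of them in a single nucleus, with 2 UMIs left without the nuclei set apart. Nrg1 (-1.67, SE 0.40), Col4a6 (-2.19, SE 0.48), Crym (-2.68, SE 0.49) and Flt1 (-2.64) had 79.3%, 48.4%, 50.9% and 84.6% of their UMIs in the nuclei set apart, and of these 4 none was called without those nuclei, at 0.69, -1.26, -1.62 and -0.60.

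Gja1 was called by edgeR with and without those nuclei (3.12 and 2.99, adjusted p = 0.000613 and 0.00887). Neither DESeq2 nor edgeR with thinned Muller sums called Gja1, nor Cadm2 or Cacnb2 below. Gja1 was spread over 40 nuclei with at most 7.94% of its UMIs in any. In astrocyte sums it was at 58.8, 98.2 and 78.4 CPM in saline and 182, 70.9 and 62.4 CPM in IL-27 libraries, which overlap, with IL-27 replicate 4 alone above the rest. In Muller sums it was at 9.91, 19.7 and 9.03 CPM in saline and 1.17, 0.217 and 6.11 CPM in IL-27 libraries, which do not overlap. No test of IL-27 against saline was run within Muller sums. Which cell type the called difference comes from was not tested. The adhesion molecule Cadm2 was called both ways (1.62 and 2.78), at 73.5, 473 and 676 CPM in saline and 837, 874 and 1560 CPM in IL-27 astrocyte sums, and 66.0% of its UMIs were in the nuclei set apart. The calcium channel subunit Cacnb2 (2.92) was called both ways too, with 0, 4 and 5 UMIs in saline and 31, 9 and 27 in IL-27 sums. March1 (4.25), Pcdh15 (1.96), Memo1 (1.83) and Kcnip4 (1.40) were also called without the nuclei set apart.

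**Figure D5:**
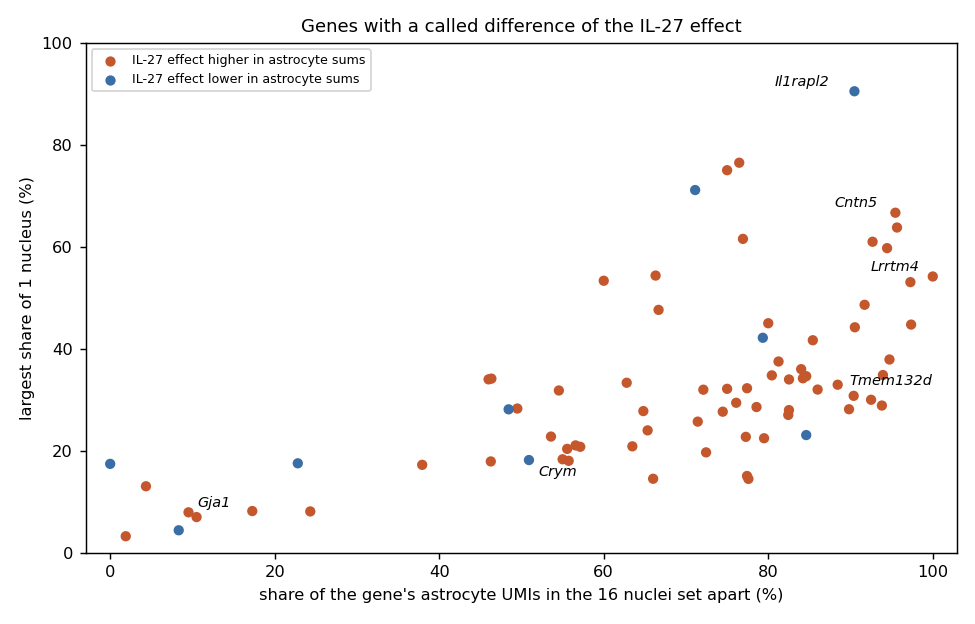
The 77 genes with a called difference of the IL-27 effect, by the percent of their astrocyte UMIs in the 16 nuclei set apart (x axis) and in their largest single nucleus (y axis), with orange for a higher and blue for a lower effect in astrocyte sums. Most points lie to the right and above 20%, as for Lrrtm4 and Cntn5, while Gja1 lies near the origin at 9.52% and 7.94%.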

How the data were processed

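The deposited files are filtered matrices of counts, UMIs per gene and nucleus, 1 per library, which the authors made with Cell Ranger (9.0.1 in the submitters' notes, 8.0.1 in the matrix headers). The genome build was not given in the sources used here. Coordinates are from GENCODE M21 (GRCm38), which held 32235 of 32285 gene identifiers.

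Of 56634 barcodes, those with over 500 UMIs, at least 200 genes and under 5% mitochondrial UMIs were kept. Doublets were called by Scrublet (expected 8%) and left in. The 11 genes of the rule were kept out of all tests. Raw counts of astrocyte or Muller nuclei were summed per library (3 saline, 3 IL-27) and tested with edgeR 4.0.16 (quasi-likelihood, TMM scaling, minimum count 10, Benjamini-Hochberg adjusted p under 0.05) in R 4.3.3, with the library as a block between cell types. Python 3.11.15 with scanpy 1.11.5, numpy 2.4.6, pandas 2.3.3, scipy 1.17.1 and matplotlib 3.10.9 was used for the rest. Intervals are 95% exact binomial or counting intervals and, like the limits for a count of 0 (3 counts), cover counting error only. On simulated counts with 200 genes changed by 1.5 on the log2 scale, 62% were recovered between cell types, 71% between treatments and 8.5% for the difference of effects. Alternatives were DESeq2 1.42.0, other scaling and filters, thinning to 1000 UMIs, leaving out doublets or single libraries, and, chosen after seeing the data, leaving out 16 nuclei.

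The rule, the members and the gene lists were chosen with earlier results of these data known. Named were up to 10 genes per direction with the largest difference between cell types (past the threshold, same sign in 6 libraries, at least 100 CPM in the higher type), 5 per direction between treatments, 5 per direction for the difference of effects, the leading members of each list and the IL-27 pathway genes. Kirrel3, Memo1, March1, Pcdh15, Kcnip4 and Trf in Muller sums were named after their values were seen. Some items that the naming rule reaches are not reported here.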

Additional observations from a re-analysis of the deposited data

Results flagged for a closer look

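In 8 of 103 groups of 6 astrocyte sums, a single library lay far from the others, where about 1 in 20 independent groups would be flagged by chance. The groups share the same 6 libraries. A gene with 1 UMI, as Hes5 and Trhde below, has 1 library apart from the rest by construction. The 8 can therefore not be judged against this rate. Saline replicate 1 was high for Car14 (29.4 CPM) and Ifitm10 (1264 CPM), and saline replicate 2 for Egfr (196 CPM), Tox (125 CPM) and Hes5 (8.93 CPM, 1 UMI). Saline replicate 6 was high for Notch2 (500 CPM), IL-27 replicate 4 for Gja1 (182 CPM) and IL-27 replicate 5 for Trhde (7.88 CPM, 1 UMI).

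The edgeR test of a different IL-27 effect in astrocyte and Muller nuclei called 77 genes. It called 8 without the 16 nuclei set apart and 2 with thinned Muller sums. DESeq2 called 2 with all nuclei and 0 without the 16. In 59 of the 77 genes a single nucleus held at least 20% of the astrocyte UMIs. On the log2 scale, the difference was 4.35 for Lrrtm4, 4.12 for Cntn5, 3.37 for Otx2os1, 3.69 for Unc5d, 3.12 for Gja1, 1.62 for Cadm2 and 2.92 for Cacnb2. It was -2.68 for Crym, -2.19 for Col4a6, -1.67 for Nrg1 and -2.64 for Flt1. Without the nuclei set apart, which were chosen partly by neuronal genes, Lrrtm4 turned to -1.62 and Nrg1 to 0.69. The fitted values of 11.63 for Tmem132d and -9.55 for Il1rapl2 rest on groups with 0 UMIs and are no bounds.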

How the results depend on the processing

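The comparison with Muller nuclei kept its direction for each of the 102 named genes under every alternative run, with 86 of 1685 values no longer past the threshold. Higher and lower calls numbered 808 and 1653, against 1004 and 1112 with DESeq2 and 417 and 467 after thinning the Muller sums, where fewer genes could be tested, and ran from 723 to 804 and from 1376 to 1604 when single libraries were left out. Between treatments, the 0 higher and 0 lower calls became 47 and 7 with no count filter, 8 and 1 in nuclei with a Pax2 UMI and 1 higher (Car10) without doublet calls. Leaving out single libraries gave 0 to 7 higher calls, with 7 without IL-27 replicate 4 and 2 without IL-27 replicate 5, and 0 lower calls. The 77 differences of the IL-27 effect became 2 with DESeq2, 2 after thinning the Muller sums, 29 with a minimum count of 20, 131 without doublet calls, 8 without the 16 nuclei set apart (chosen after seeing the data) and 0 by DESeq2 without them. They ran from 47 to 82 when single libraries were left out, with 51 if saline replicate 1 was dropped, 47 for saline replicate 6 and 48 for IL-27 replicate 5. The difference in share, 0.0529 points, was -0.0439 without the excluded genes and 0.0123 to 0.0894 without single libraries. Between treatments, Nrxn3 turned to -0.19 without the nuclei set apart, which were chosen partly by neuronal genes. Stat3 ran from -0.35 to 0.044 when single libraries were left out, positive if IL-27 replicate 10 was dropped. In the difference of effects, Lrrtm4 turned to -1.62 without the nuclei set apart (-1.46 by DESeq2), Nrg1 to 0.69 (0.64 by DESeq2) and to 0.031 without doublet calls, and Il1rapl2 ran from -10.002 to 0.10, positive if saline replicate 6 was dropped. The cause was not tested. No paired analysis was possible because the IL-27 and saline libraries share no replicate numbers. A test of nuclei with against without Pax2 was not run, since the latter number 1 to 4 per library. With 16 to 34 nuclei per library, genes of low level could not be tested between treatments.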
